A study of Mus musculus with 12 samples.

Results

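The genes described here encode the RNA polymerase II machinery that elongates transcripts: the 12 subunits of the enzyme and 27 factors that release it from promoters, restrain it or help it through chromatin. They were chosen by name, and all 39 symbols were found among the 24421 gene rows of the count table. All 39 passed the filter on low counts, which left 15281 genes to test. The cells were E14 mouse embryonic stem cells, a single established line, grown on gelatin with FBS and LIF for 2 weeks. The 4 groups were Mettl3-KO cells paused with 200 nM INK128, Mettl3-KO cells in FBS without the inhibitor, wild-type (WT) cells paused in the same way, and WT cells in FBS, with 3 libraries each. INK128 inhibits mTOR, the kinase that couples nutrients to growth, and prolonged inhibition places these cells in a reversible dormant state called paused pluripotency. METTL3 is the catalytic subunit of the complex that methylates adenosines in mRNA (m6A). The labels do not say how many clones the KO libraries come from or whether replicates are separate cultures, so p-values measure the spread between these libraries, which may be technical.

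Transcription by Pol II is controlled after initiation as well as before it. DSIF and NELF hold the enzyme shortly after it leaves the promoter. P-TEFb, the kinase CDK9 with a cyclin T, releases it by phosphorylating DSIF, NELF and the C-terminal domain (CTD) of the largest subunit. HEXIM1 and LARP7 keep a pool of P-TEFb inactive on the 7SK RNA, while the super elongation complex carries P-TEFb to genes. The PAF1 complex, FACT, SPT6 and TFIIS then accompany the enzyme through the gene body.

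RNA came from 200000 cells per library, and synthetic ERCC RNAs were added to the extracted RNA, so values could be put on a pair of scales. The relative scale compares a gene with the typical gene of the library. The per-cell scale compares it with the spike-ins and follows the RNA recovered from a fixed number of cells; RNA content per cell and recovery of RNA cannot be told apart on it. Counts per library ran between 10615548 and 39566713, and the members took between 51845 and 197308 of them. Cellular counts per ERCC count averaged 38.3 ± 1.89 in KO paused libraries, 68.5 ± 23.3 in KO FBS libraries, 33.0 ± 4.19 in WT paused libraries and 73.4 ± 1.15 in WT FBS libraries (SD, n = 3 each). The KO FBS libraries varied most in this measure. Mettl3 itself had 30.1 ± 1.31 counts per 1e6 counts (CPM) in KO paused libraries, 27.2 ± 1.61 in KO FBS libraries, 35.9 ± 2.85 in WT paused libraries and 33.9 ± 3.17 in WT FBS libraries; gene counts do not show where the edit lies, and they do not check the genotype label. The 7 pluripotency markers, Pou5f1 among them, summed to between 1800 and 4300 CPM over the 12 libraries. WT FBS replicate 1 stood apart: the members had a median of −0.39 log2 in it relative to the other replicates of its group, and 10.2% of tested genes differed over 2-fold from them. Replicate 1 of each other group had a smaller negative median, between −0.13 and −0.05. WT paused replicate 2 had −0.02, and all remaining libraries had positive medians.

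The promoter sequences of 4 members that the results turn on are shown first. RefSeq windows on build GRCm38.p6, running from 250 bases before to 50 bases after the gene start, were matched for 31 of the 39 members. They are the largest subunit, the subunit with the lowest relative change on pausing in WT, the P-TEFb kinase and its inhibitor, printed 5′ to 3′ on the gene's strand, with the motif letters found by search in capitals. The windows lie at chr11:69758584-69758883 (minus strand) for Polr2a, chr7:30231824-30232123 (plus) for Polr2i, chr2:32712735-32713034 (minus) for Cdk9 and chr11:103116075-103116374 (plus) for Hexim1.
Polr2a: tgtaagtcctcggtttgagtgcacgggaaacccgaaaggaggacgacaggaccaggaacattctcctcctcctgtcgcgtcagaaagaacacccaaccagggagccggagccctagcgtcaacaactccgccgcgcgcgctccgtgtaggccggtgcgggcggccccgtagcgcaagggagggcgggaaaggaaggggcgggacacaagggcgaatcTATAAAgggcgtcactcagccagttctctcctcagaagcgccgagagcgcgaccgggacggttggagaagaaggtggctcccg
Polr2i: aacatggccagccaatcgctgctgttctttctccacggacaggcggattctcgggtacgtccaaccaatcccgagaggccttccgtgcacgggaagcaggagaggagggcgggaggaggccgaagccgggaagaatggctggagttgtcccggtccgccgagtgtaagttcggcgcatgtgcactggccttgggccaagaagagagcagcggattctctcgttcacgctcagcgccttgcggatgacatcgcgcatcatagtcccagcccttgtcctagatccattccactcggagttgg
Cdk9: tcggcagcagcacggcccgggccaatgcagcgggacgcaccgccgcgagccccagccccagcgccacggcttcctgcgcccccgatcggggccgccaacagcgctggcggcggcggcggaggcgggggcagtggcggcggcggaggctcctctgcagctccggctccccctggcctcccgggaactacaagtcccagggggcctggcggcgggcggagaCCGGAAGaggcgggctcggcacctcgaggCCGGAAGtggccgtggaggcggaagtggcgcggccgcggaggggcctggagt
Hexim1: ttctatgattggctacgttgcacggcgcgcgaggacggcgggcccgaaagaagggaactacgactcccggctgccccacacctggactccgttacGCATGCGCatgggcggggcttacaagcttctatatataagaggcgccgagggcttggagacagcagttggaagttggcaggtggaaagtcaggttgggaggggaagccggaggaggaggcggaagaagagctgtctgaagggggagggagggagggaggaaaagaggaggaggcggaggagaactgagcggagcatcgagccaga
The capitals mark TATAAA in Polr2a, the ETS letters CCGGAAG at both places in Cdk9, and the NRF1 letters GCATGCGC in Hexim1; the Polr2i window holds none of the motifs searched, which were these and the E-box CACGTG, each on both strands. CCGGAAG was present in 10 of the 31 members (32.3%), against 18.0% of 11379 tested genes with a window and 9.93% of all 27025 genes. GCATGCGC was present in 4 members (12.9%; Hexim1, Polr2b, Polr2j and Rtf1), against 5.62% of tested genes. CACGTG was present in 4 (12.9%), against 11.5% of tested genes, and TATAAA in 3 (9.68%; Nelfb, Polr2a and Polr2c), against 8.91%. A match is a description of letters and not a binding site.

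The 12 subunit genes parted ways when WT cells were paused. Polr2a, which encodes the largest subunit with the catalytic centre and the CTD, rose relative to other genes, while 8 of the other 11 fell and the remaining 3 had negative changes that did not pass the test. In CPM, Polr2a had 379, 417 and 378 in KO paused libraries, 389, 412 and 399 in KO FBS libraries, 699, 689 and 695 in WT paused libraries, and 603, 602 and 468 in WT FBS libraries. Every WT paused library stood above every WT FBS library, and the 2 KO groups overlapped. The relative change was 0.32 ± 0.10 log2 (SE, 3 libraries against 3; edgeR adjusted p = 0.025) in WT cells and −0.03 ± 0.10 (adjusted p = 0.818) in KO cells. The Polr2a call in WT was lost when any WT paused library or WT FBS replicate 3 was left out, with changes between 0.20 and 0.38 over all leave-one-out fits. The difference between the genotypes' pausing effects, −0.35 ± 0.14, did not pass the test (adjusted p = 0.108).

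Polr2i encodes RPB9, the small subunit that supports the enzyme's cleavage of its own transcript and its fidelity. It had 7.20, 7.30 and 7.19 CPM in KO paused libraries, 10.3, 11.1 and 13.1 in KO FBS libraries, 6.91, 6.42 and 8.08 in WT paused libraries, and 11, 21.0 and 19.0 in WT FBS libraries. All paused libraries lay below all FBS libraries, and WT FBS replicate 1 was near the KO FBS libraries rather than its own group. The relative change on pausing was −1.26 ± 0.21 in WT (adjusted p = 0.000677) and −0.67 ± 0.20 in KO cells (adjusted p = 0.0164). The KO call ended when replicate 3 of KO FBS or of KO paused was left out (adjusted p up to 0.0714), whereas the WT call held in all 12 leave-one-out fits. Of the exonic bases of Polr2i, 34.1% are shared with Tbcb on the opposite strand; the kit marks strand, but the sources used here do not say whether counting used it.

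Polr2g encodes RPB7, part of the stalk that binds the emerging transcript. Its values were 28.2, 28.7 and 29.1 CPM in KO paused libraries, 34.4, 37.0 and 38.1 in KO FBS libraries, 33.5, 30.2 and 31.0 in WT paused libraries, and 35.7, 47.4 and 45.9 in WT FBS libraries. Paused libraries lay below FBS libraries in both genotypes, with changes of −0.35 ± 0.11 in KO (adjusted p = 0.0182; lost without replicate 2 or 3 of KO FBS or replicate 1 or 2 of KO paused) and −0.45 ± 0.11 in WT (adjusted p = 0.00609). The 10 subunits other than Polr2a and Polr2b had relative changes between −1.26 (Polr2i) and −0.31 (Polr2c) in WT cells, with a median of −0.62 and 7 called lower. In KO cells all 10 were also negative, between −0.67 (Polr2i) and −0.21 (Polr2f), with a median of −0.40 and 4 called lower (Polr2c, Polr2g, Polr2i and Polr2e). Polr2b, the second-largest subunit, fell in WT (−0.37 ± 0.11, adjusted p = 0.0162; lost without replicate 2 or 3 of WT FBS or replicate 1 or 2 of WT paused) and had a change of 0.03 ± 0.11 in KO cells (adjusted p = 0.846). None of the 12 subunits passed the test for a difference between the genotypes' pausing effects.

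These counts stand against a background in which much of the transcriptome moved. In WT pausing, 3 members were called higher and 17 lower, where 18.0% and 20.2% of all tested genes were; the members' median was −0.25 and that of all tested genes −0.02. In KO pausing, 4 members were called higher and 10 lower, where 23.3% and 19.4% of tested genes were; the medians were −0.15 for the members and 0.03 for all tested genes. Among the 20 WT calls, 8 held in all 12 leave-one-out fits (Polr2g, Polr2i, Polr2j, Ell2, Supt4a, Leo1, Ssrp1 and Tcea1), as did 9 of the 14 KO calls (Polr2e, Cdk7, Cdk12, Hexim1, Ell2, Supt4a, Nelfb, Nelfcd and Tcea1). Without WT FBS replicate 1, WT pausing gave 6 members higher and 24 lower, where 27.8% and 31.1% of tested genes were called, and KO pausing gave 7 and 20, where 29.9% and 29.9% were. With only the 2 groups compared in the fit, 26 members were called in KO pausing and 4 in WT pausing (Polr2g, Polr2i, Ell2 and Supt4a). Of 14977 genes in that KO fit, 4823 were called higher and 4535 lower. Of 13600 genes in the WT fit, 1352 were called higher and 1417 lower.

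Markers of other cell types moved with pausing too, each list being read as summed CPM. In KO cells the 7 trophoblast markers had 20.7 to 23.1 in paused libraries, against 130 to 189 in FBS libraries, and the 7 fibroblast markers 4.93 to 6.92, against 15.5 to 20.1. Extraembryonic endoderm markers lay close, with 24.4 to 26.3 in KO paused libraries and 26.3 to 28.9 in KO FBS libraries. The lowest group for all 3 of these lists was WT paused: trophoblast markers had 7.72 to 8.76 there, against 12.1 to 17.9 in WT FBS, fibroblast markers 0.745 to 1.66, against 4.43 to 7.52, and endoderm markers 10.1 to 15.6, against 43.2 to 90.1. Single genes went the other way. Gata3 (1.46 against 0.668) and Elf5 (0.0151 against 0.0095) averaged higher in WT paused than in WT FBS. Gata4 (1.04) and Cubn (3.1) were higher in WT paused than in either KO group. Dab2 was slightly higher in KO paused than in KO FBS (16.7 against 16.1). The sum of the neural markers was higher in paused libraries, with 233 to 269 in KO paused against 121 to 149 in KO FBS, and 167 to 222 in WT paused against 62.0 to 132 in WT FBS. In WT, Sox1 averaged 123 CPM in paused libraries against 17.3 in FBS, and Pax6 and Tubb3 were higher by less. Nes (7.47 against 28.3), Neurod1 (0.985 against 2.66) and Six3 (0 against 0.119) were lower in WT paused. In KO, Nes alone was lower in paused libraries (25.2 against 48.2). The sum of the 7 pluripotency markers was also higher in paused libraries, with 2460 to 2720 in KO paused against 1800 to 2160 in KO FBS, and 3900 to 4300 in WT paused against 3120 to 3520 in WT FBS. In KO, Klf4, Esrrb, Sox2 and Tdgf1 were higher. Pou5f1 (434 against 495), Nanog (176 against 232) and Zfp42 (231 against 279) were lower in KO paused on average. In WT, Pou5f1 (824 against 835) and Zfp42 (382 against 413) were lower in paused libraries and the others higher. Among defining genes, Elf5 was at 0 in 2 of 3 libraries of each paused group. The part of these differences in the members' pausing changes was not tested.

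**Figure D1:**
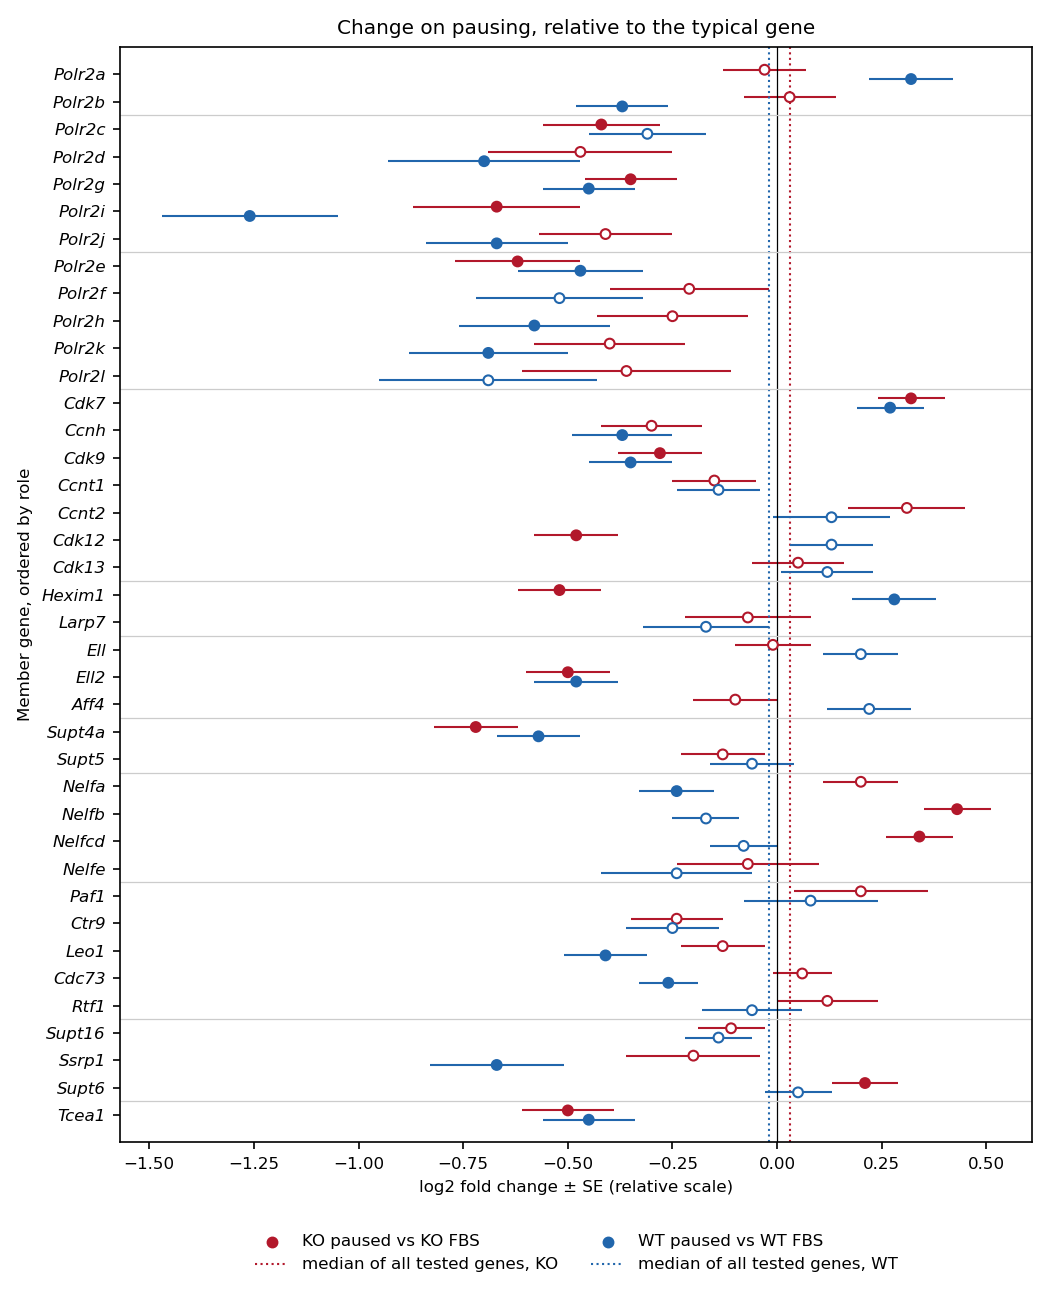
Relative log2 fold change on pausing (x axis, ± SE) of each of the 39 members (y axis, grouped by role), with KO paused against KO FBS in red above WT paused against WT FBS in blue; filled points passed the test, open points did not, and dotted lines mark the median of all tested genes (0.03 in KO, −0.02 in WT). The 10 subunits from Polr2c to Polr2l lie left of 0 in both genotypes. Several members, Hexim1, Cdk12 and Nelfb among them, lie on opposite sides of 0 in the genotypes. The WT values of Cdk12 and Nelfb did not pass the test.

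The kinases of the CTD did not move as a group. Cdk7, the TFIIH kinase, rose in both genotypes, by 0.32 ± 0.08 in KO (adjusted p = 0.00801) and 0.27 ± 0.08 in WT (adjusted p = 0.0246), while its cyclin gene Ccnh had −0.30 ± 0.12 in KO (adjusted p = 0.0649) and fell in WT (−0.37 ± 0.12, adjusted p = 0.0297). The WT call of Cdk7 was lost without WT paused replicate 1 or WT FBS replicate 3, and that of Ccnh when any WT library other than WT FBS replicate 1 was left out. Per cell, Cdk7 had −0.41 in KO (not called) and −0.77 in WT (called lower). Cdk9 had 86.3, 88.8 and 92.5 CPM in KO paused libraries, 100, 109 and 116 in KO FBS libraries, 51.4, 54.3 and 56.4 in WT paused libraries, and 60.0, 78.7 and 67.7 in WT FBS libraries. No group overlapped another for this gene: KO lay above WT in either condition and paused lay below FBS in either genotype. Its relative pausing change was −0.28 ± 0.10 in KO (adjusted p = 0.0399) and −0.35 ± 0.10 in WT (adjusted p = 0.0174), but single libraries could end either call (in KO any KO paused library, replicates 2 and 3 of KO FBS and replicates 1 and 2 of WT paused; in WT, WT paused replicate 1 or WT FBS replicate 2; adjusted p up to 0.145 and 0.0806).

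Ccnt1 and Ccnt2 encode the alternative cyclins of P-TEFb. Ccnt1 had 43.2, 41.5 and 39.2 CPM in KO paused libraries, 46.5, 46.0 and 44.9 in KO FBS libraries, 48.6, 44.7 and 48.4 in WT paused libraries, and 60.3, 48.4 and 48.1 in WT FBS libraries. Its groups lay close together, and none of the 5 comparisons passed the test on the relative scale. Per kilobase of exon it was among the lowest members, ranked 38 of 39 in KO paused, KO FBS and WT paused and 39 in WT FBS, while Ssrp1, Supt16, Tcea1 and Polr2a were the highest 4 in every group. Polr2a had 55.4 CPM per kilobase in KO paused libraries, 56.6 in KO FBS libraries, 98.3 in WT paused libraries and 78.9 in WT FBS libraries, and ranked highest of all members in WT paused.

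Hexim1, the inhibitor of P-TEFb, changed in opposite directions in the 2 genotypes. It had 78.0, 86.0 and 85.2 CPM in KO paused libraries, 106, 118 and 133 in KO FBS libraries, 77.1, 79.2 and 82.5 in WT paused libraries, and 61.5, 63.8 and 71.6 in WT FBS libraries. The KO FBS libraries stood above all others, the WT FBS libraries below all others, and the 2 paused groups overlapped. Hexim1 fell in KO cells (−0.52 ± 0.10, adjusted p = 0.000955) and rose in WT cells (0.28 ± 0.10, adjusted p = 0.0395), and the difference between the pausing effects was −0.79 ± 0.14 (adjusted p = 0.00217). That difference held in all 12 leave-one-out fits, between −0.87 and −0.71. The WT rise was lost in 8 of them, those without WT FBS replicate 2, KO FBS replicate 2 or any paused library (adjusted p up to 0.14), with values between 0.22 and 0.34. Per cell, Hexim1 was lower on pausing in both, with −1.28 ± 0.32 in KO and −0.76 ± 0.32 in WT. Larp7, the other 7SK protein among the members, had −0.07 ± 0.15 in KO and −0.17 ± 0.15 in WT, neither past the test.

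Hexim1 neighbours on chromosome 11 moved with it in part. The median change of the 49 nearest tested genes was −0.45 in KO pausing and −0.10 in WT pausing, and −0.19 for the difference between pausing effects, against −0.52, 0.28 and −0.79 for Hexim1 itself. Cdk12, a CTD kinase that acts further along genes, had a KO pausing change of −0.48 ± 0.10 (adjusted p = 0.00237) beside a neighbour median of −0.49, so it fell by as much as the genes around it. It had 351, 336 and 319 CPM in KO paused libraries, 476, 477 and 446 in KO FBS libraries, 302, 249 and 273 in WT paused libraries, and 223, 246 and 282 in WT FBS libraries. KO paused libraries lay below KO FBS libraries, and the WT groups overlapped (0.13 ± 0.10, adjusted p = 0.321). The difference between pausing effects was −0.61 ± 0.14 (adjusted p = 0.0121; neighbour median −0.39). The part of the chromosomal surroundings in these differences was not tested.

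**Figure D2:**
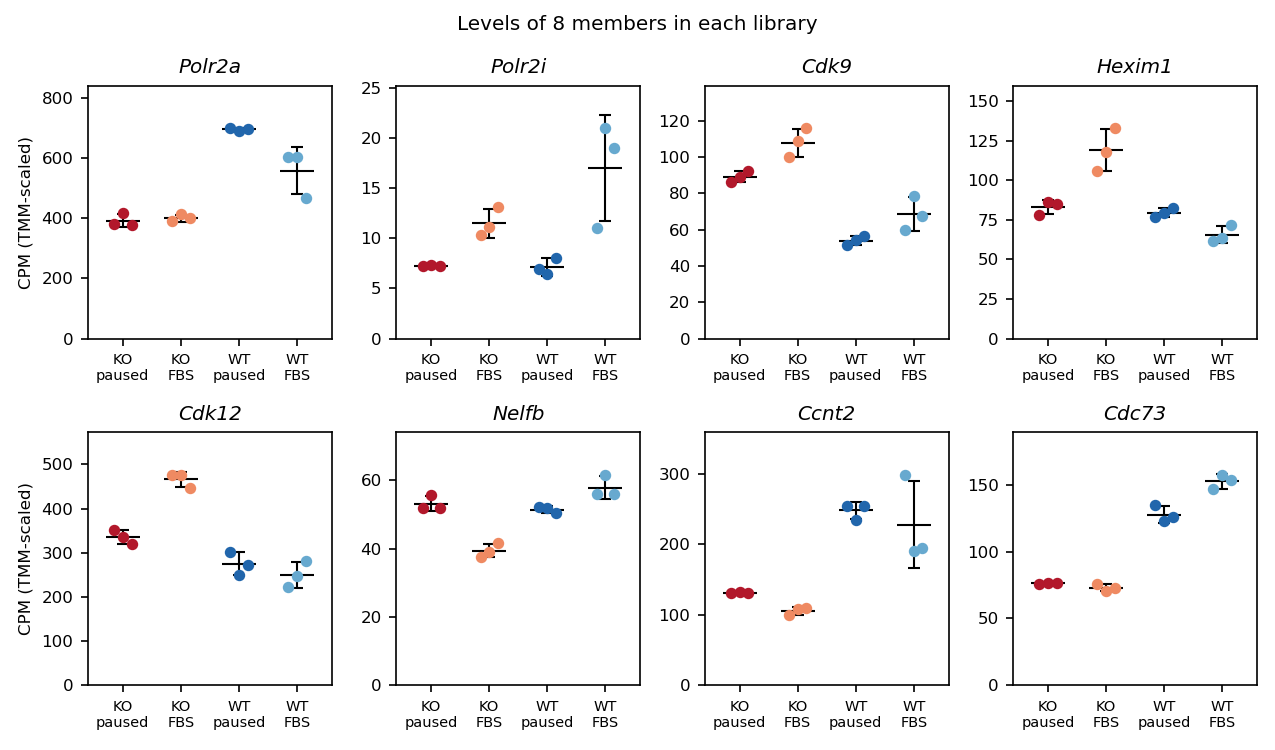
TMM-scaled CPM (y axis, from 0) of 8 members in the 12 libraries, by group; points are libraries and black bars mean ± SD (n = 3). Hexim1 and Cdk12 peak in KO FBS, Cdk9 is higher in both KO groups, and Ccnt2 and Cdc73 are lower in both KO groups.

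Because METTL3 writes m6A mostly at adenosines in GGACT-like letters, those letters were counted in each member's transcript. Hexim1 had the most per kilobase among the 39 members, 9 sites in a transcript of 3495 bases (2.58 per kilobase, the 95.8th percentile of tested genes). The median was 1.04 for the members and 1.05 for 14224 tested genes, and Nelfe, Polr2d and Polr2l had 0 sites. Hexim1 is a single-exon gene at chr11:103116231-103119725 (plus strand, GRCm38), with a coding part between transcript positions 692 and 1762. Its 9 sites are shown with 8 bases on either side, in transcript order, the GGACT letters in capitals; 4 lie in the 5′ UTR, 2 in the coding part and 3 in the 3′ UTR.
Hexim1 transcript position 249: cggctctgGGACTttaacccc
Hexim1 transcript position 364: aacccattGGACTtaaacctc
Hexim1 transcript position 527: tattgactGGACTccaagttg
Hexim1 transcript position 601: accgaagaGGACTttgttgga
Hexim1 transcript position 976: aatggggaGGACTtatccact
Hexim1 transcript position 1477: ctgcagcgGGACTtctcggag
Hexim1 transcript position 1794: ggcaaaggGGACTttttacag
Hexim1 transcript position 2662: gatatgttGGACTtcaaatgg
Hexim1 transcript position 2688: tgatctaaGGACTtagcatca
Methylation itself was not measured in these libraries, so these letters say only where the sequence could be read by the enzyme.

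Of the super elongation complex, Ell2 fell in both genotypes and Ell did not. Ell2 had 56.0, 50.2 and 54.3 CPM in KO paused libraries, 71.5, 77.0 and 78.7 in KO FBS libraries, 47.0, 39.6 and 41.9 in WT paused libraries, and 60.4, 66.4 and 52.6 in WT FBS libraries. Paused libraries lay below FBS libraries in both genotypes, with changes of −0.50 ± 0.10 in KO (adjusted p = 0.00167) and −0.48 ± 0.10 in WT (adjusted p = 0.00348). Ell, its paralogue, had 23.5, 23.8 and 24.6 CPM in KO paused libraries, 21.9, 24.4 and 26.3 in KO FBS libraries, 38.8, 42.1 and 42.8 in WT paused libraries, and 38.6, 35.4 and 34.1 in WT FBS libraries. Its pausing changes, −0.01 ± 0.09 in KO and 0.20 ± 0.09 in WT, did not pass the test. Aff4, the scaffold of the complex, had −0.10 ± 0.10 in KO and 0.22 ± 0.10 in WT, likewise not called.

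The 2 subunits of DSIF behaved differently from each other. Supt4a, which encodes SPT4, fell in both genotypes while Supt5, its larger partner, was called in neither. Supt4a had 25, 26.5 and 25.6 CPM in KO paused libraries, 37.2, 44.7 and 45.1 in KO FBS libraries, 21.4, 20.5 and 19.7 in WT paused libraries, and 28.8, 32.3 and 29.9 in WT FBS libraries. The groups did not overlap in either genotype, and the changes of −0.72 ± 0.10 in KO (adjusted p = 8.19e-05; neighbour median −0.38) and −0.57 ± 0.10 in WT (adjusted p = 0.00101; neighbour median 0.12) held in all 12 leave-one-out fits. A near copy, Supt4b (Gm3258 in the count table), had between 0 and 9 counts per library, against 220 to 1414 for Supt4a, and how reads common to both were counted is not given in the sources used here. Supt5 had −0.13 ± 0.10 in KO and −0.06 ± 0.10 in WT.

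For 3 of the 4 NELF genes the relative response to pausing differed between the genotypes. Of all tested genes, 9.61% were called higher and 8.26% lower for this difference. Per cell, the difference was called for 0 of the 4. Nelfb had 51.9, 55.8 and 52.0 CPM in KO paused libraries, 37.6, 39.1 and 41.5 in KO FBS libraries, 52.1, 51.8 and 50.3 in WT paused libraries, and 56.1, 61.7 and 55.9 in WT FBS libraries. The KO FBS libraries stood below all others. Nelfb rose in KO cells (0.43 ± 0.08, adjusted p = 0.000808) and had −0.17 ± 0.08 in WT (adjusted p = 0.103), a difference of 0.61 ± 0.11 (adjusted p = 0.00327) that held in all 12 leave-one-out fits; its neighbours had medians of 0.41 in KO pausing and 0.34 for the difference.

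Nelfcd had 55.7, 60.6 and 59.1 CPM in KO paused libraries, 43.1, 46.4 and 48.7 in KO FBS libraries, 53.5, 57.9 and 57.6 in WT paused libraries, and 60.8, 59.5 and 58.2 in WT FBS libraries. Again KO FBS was the low group: the gene rose in KO (0.34 ± 0.08, adjusted p = 0.00375) and had −0.08 ± 0.08 in WT, a difference of 0.42 ± 0.11 (adjusted p = 0.0215; neighbour median −0.08). Nelfa had 49.1, 48.8 and 53.3 CPM in KO paused libraries, 41.7, 43.9 and 45.9 in KO FBS libraries, 49.8, 53.8 and 55.1 in WT paused libraries, and 60.2, 69.4 and 58.2 in WT FBS libraries. Its pausing change was 0.20 ± 0.09 in KO (adjusted p = 0.0874), it fell in WT (−0.24 ± 0.09, adjusted p = 0.0499), and the difference was 0.45 ± 0.13 (adjusted p = 0.0303). The differences of Nelfcd and Nelfa were lost in 5 and 8 leave-one-out fits (adjusted p up to 0.0649 and 0.0837), with KO FBS replicates 1 and 2, WT paused replicate 1 and KO paused replicates 2 and 3 among the libraries that ended both and KO paused replicate 1, WT FBS replicate 2 and WT paused replicate 2 ending that of Nelfa as well. Per cell, the 3 genes had KO pausing values between −0.56 and −0.32, not called. The Nelfa fall in WT was lost in 10 of the 12 fits, all but those without WT FBS replicate 1 or 3 (adjusted p up to 0.21). Nelfe, the remaining subunit, did not pass the test in any of the 5 comparisons.

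In the PAF1 complex, Leo1 (−0.41 ± 0.10, adjusted p = 0.00946) and Cdc73 (−0.26 ± 0.07, adjusted p = 0.0145) fell in WT pausing, and no member of the complex was called in KO pausing. The Cdc73 fall ended when replicate 2 of either WT group was left out. Cdc73, the gene of the parafibromin subunit, had 75.9, 76.3 and 76.8 CPM in KO paused libraries, 76.0, 70.8 and 72.8 in KO FBS libraries, 135, 123 and 126 in WT paused libraries, and 147, 158 and 154 in WT FBS libraries. Both KO groups lay far below both WT groups. The difference between its pausing effects, 0.32 ± 0.10, was just past the threshold (adjusted p = 0.0481) and was lost in 11 of the 12 leave-one-out fits, those that kept WT FBS replicate 1 (adjusted p up to 0.123).

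Among the histone chaperones, Ssrp1, the HMG-box subunit of FACT, had 246, 274 and 281 CPM in KO paused libraries, 282, 316 and 322 in KO FBS libraries, 234, 247 and 292 in WT paused libraries, and 290, 458 and 485 in WT FBS libraries. It fell in WT (−0.67 ± 0.16, adjusted p = 0.00659; neighbour median −0.29) and had −0.20 ± 0.16 in KO (adjusted p = 0.332). WT FBS replicate 1 was within the range of the paused WT libraries. Supt16, the other FACT subunit, was called in neither genotype (−0.11 ± 0.08 in KO, −0.14 ± 0.08 in WT). Supt6, a nucleosome chaperone that binds the elongating enzyme, rose in KO (0.21 ± 0.08, adjusted p = 0.0496), a call lost in 10 of the 12 leave-one-out fits, all but those without WT FBS replicate 1 or 2 (adjusted p up to 0.163). Tcea1, which encodes the TFIIS that restarts backtracked polymerase, fell in both genotypes, with changes of −0.50 ± 0.11 in KO (adjusted p = 0.00364) and −0.45 ± 0.11 in WT (adjusted p = 0.00793).

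Over all members, 4 were called higher and 2 lower when the pausing effect of WT was subtracted from that of KO, where 9.61% and 8.26% of tested genes were. The members' median was 0.10, near the 0.09 of all tested genes. Without WT FBS replicate 1 the counts were 16 and 4, where 24.3% and 17.1% of tested genes were called, so the number called depends on this library. It depends on others too. Without KO FBS replicate 2, 909 of 15421 genes were higher and 911 lower, against 1469 and 1262 of 15281 with all libraries.

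On the per-cell scale the fall reached every member in WT cells. All 39 were called lower in WT pausing, where 68.8% of tested genes were called lower and 1.15% higher. The members' median was −1.27 log2 and that of all tested genes −1.05. Changes ran between −2.30 ± 0.35 for Polr2i (adjusted p = 4.35e-09) and −0.70 ± 0.33 for Polr2a (adjusted p = 0.0494), so even the subunit gene that rose relative to others fell per cell. In KO cells 28 of 39 were called lower and 0 higher, where 45.7% and 2.45% of tested genes were, with a median of −0.91 against −0.72 for all tested genes. The 11 others did not pass the test: they were Polr2b, Cdk7, Cdk13, Ccnt2, Supt6, Nelfa, Nelfb, Nelfcd, Paf1, Cdc73 and Rtf1, between −0.72 and −0.32. Supt4a fell most in KO (−1.50 ± 0.33, adjusted p = 5.31e-05). The 12 subunits had medians of −1.16 in KO (11 called lower) and −1.57 in WT (12 called lower).

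The genotype difference of this per-cell fall was called for 0 of the 39 members by edgeR (0 at an unadjusted p under 0.05, 0 by DESeq2 or limma, and 1, Nelfb, with the replicate number as a block), where 3.04% of tested genes were called higher and 1.66% lower, and the members' median of 0.37 equalled that of all tested genes. For that difference the replicate block called 1531 of 15281 genes higher and 439 lower. The KO count rests on single libraries: without KO paused replicate 1 it was 13, and without KO FBS replicate 2 it was 14. Over all genes, 3819 of 15666 were called lower in the first of these fits and 3810 of 15421 in the second. In WT, 30 of the 39 calls held in all 12 leave-one-out fits, and Polr2a, Cdk7, Ccnt2, Cdk12, Cdk13, Hexim1, Ell, Aff4 and Paf1 each lost theirs in at least 1.

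**Figure D3:**
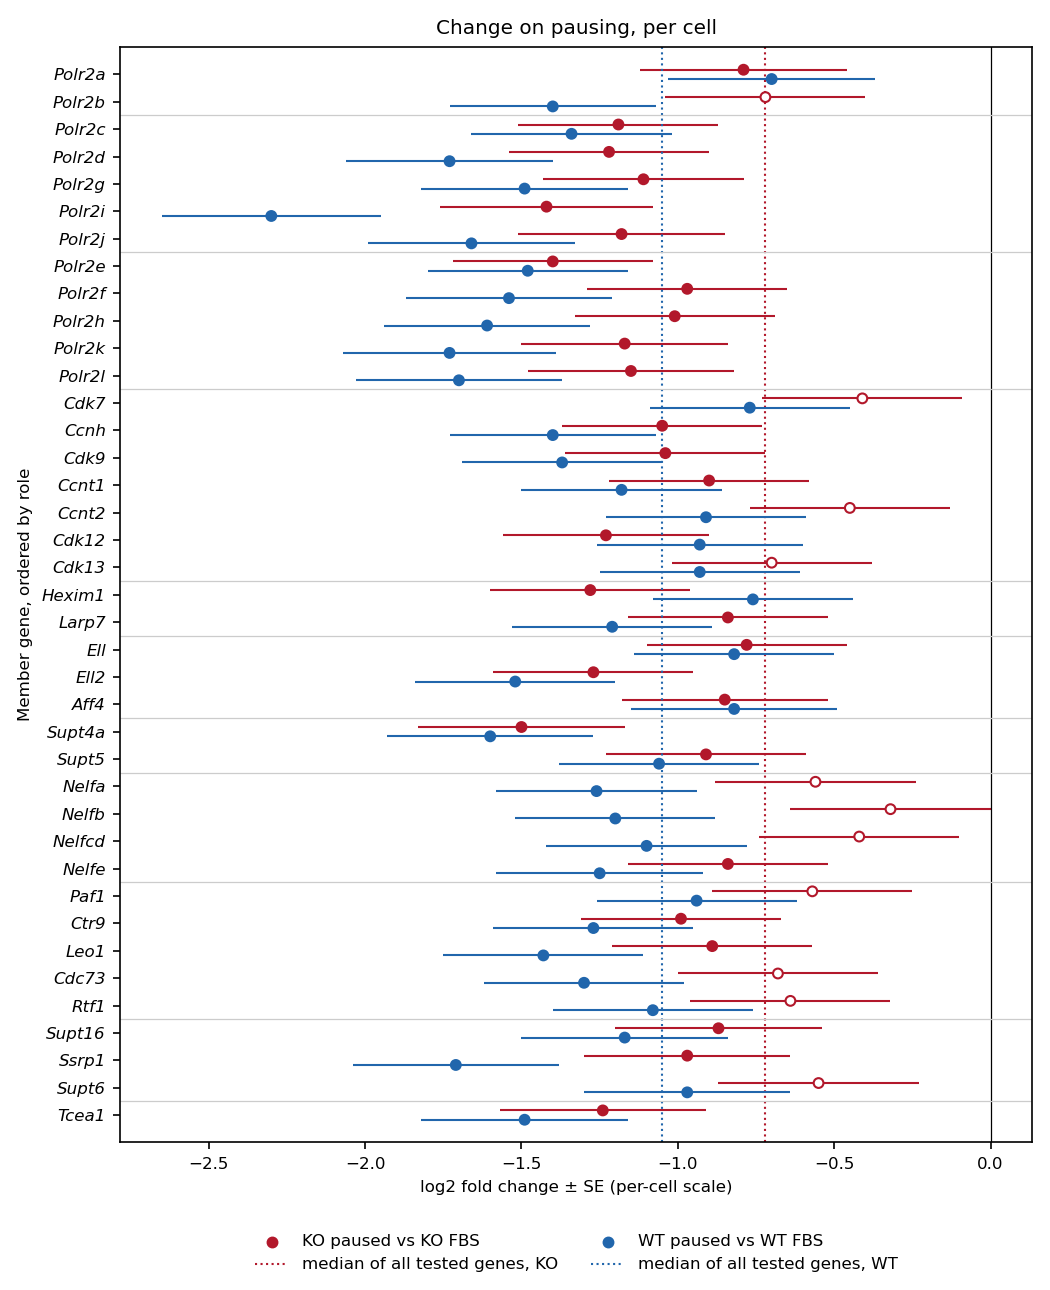
Per-cell log2 fold change on pausing (x axis, ± SE) of the 39 members (y axis, grouped by role), with KO paused against KO FBS in red above WT paused against WT FBS in blue; filled points passed the test and dotted lines mark the median of all tested genes (−0.72 in KO, −1.05 in WT). All values lie left of 0, and Nelfb (−0.32) and Cdk7 (−0.41) in KO lie nearest to it.

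Between the genotypes in FBS, the members on the low side were more numerous. In KO FBS against WT FBS, 7 were called higher and 17 lower on the relative scale, where 28.4% and 29.4% of tested genes were; the medians were −0.24 for the members and −0.04 for all tested genes. Cdk12 (0.90 ± 0.10, adjusted p = 1.1e-05), Hexim1 (0.85 ± 0.10, adjusted p = 1.07e-05), Cdk9 (0.65 ± 0.10, adjusted p = 0.000142), Cdk13, Supt4a, Ctr9 and Ell2 were higher in KO FBS. Ccnt2 (−1.11 ± 0.14, adjusted p = 3.63e-05) and Cdc73 (−1.06 ± 0.07, adjusted p = 2.05e-07) were lowest, and both large subunits were lower, Polr2a (−0.48 ± 0.10) and Polr2b (−0.57 ± 0.11). NELF had 3 of its 4 genes lower (Nelfa, Nelfb and Nelfcd), and all 3 histone chaperone genes were lower, between −0.44 and −0.39. Of these 24 calls, 18 held in all 12 leave-one-out fits; Polr2c, Polr2i, Cdk7, Ell2, Supt5 and Ssrp1 lost theirs in at least 1.

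Other cell-type markers moved with the KO FBS group. The 7 trophoblast markers summed to between 130 and 189 CPM in KO FBS, against 12.1 to 17.9 in WT FBS, with Krt8 and Krt18 the most abundant (93.1 and 40.7 CPM in KO FBS on average). Elf5, a defining trophoblast gene, averaged 0.324 CPM in KO FBS libraries and 0.0095 CPM in WT FBS libraries, and it was detected in all 3 KO FBS libraries and at 0 in 2 of the 3 WT FBS libraries. The 7 fibroblast markers summed to between 15.5 and 20.1 CPM in KO FBS, against 4.43 to 7.52 in WT FBS, and 7 extraembryonic endoderm markers to between 26.3 and 28.9, against 43.2 to 90.1. Cubn made up much of the endoderm sum in WT FBS (34.2 CPM on average, against 2.17 in KO FBS). Foxa2 (6.38 against 0.504) and Dab2 (16.1 against 15.4) were higher in KO FBS. The 6 neural markers summed to between 121 and 149 CPM in KO FBS, against 62.0 to 132 in WT FBS, but Sox1 was lower in KO FBS (0.603 against 17.3). The 7 pluripotency markers summed to between 1800 and 2160 CPM in KO FBS, against 3120 to 3520 in WT FBS, but Nanog was not lower (232 against 220). The part of these differences in the members' values was not tested. In these bulk samples fewer cells of a type and less RNA per cell cannot be told apart.

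In paused cells, 8 members were higher and 10 lower in KO than in WT, where 27.9% and 23.9% of tested genes were; the medians were 0.05 for the members and 0.01 for all tested genes. Polr2a was lower by a wider margin than in FBS (−0.83 ± 0.10, adjusted p = 2.29e-05), although the difference between the conditions did not pass the test. Aff4 had 334, 316 and 290 CPM in KO paused libraries, 350, 328 and 329 in KO FBS libraries, 637, 548 and 558 in WT paused libraries, and 557, 468 and 469 in WT FBS libraries, and the KO libraries lay below the WT libraries in both conditions. Its differences were −0.89 ± 0.10 in paused cells (adjusted p = 1.11e-05; neighbour median 0.17) and −0.57 ± 0.10 in FBS (adjusted p = 0.000326; neighbour median 0.02). Ell had −0.78 ± 0.09 in paused cells (adjusted p = 2.07e-05; neighbour median −0.37) and −0.57 ± 0.09 in FBS (neighbour median −0.75). Cdk9 was higher by 0.72 ± 0.10 (adjusted p = 7.97e-05; neighbour median 0.38), and Cdk13 (0.48), Ctr9 (0.47), Polr2l (0.75), Polr2j (0.44), Ell2, Supt4a and Cdk12 were higher too. Hexim1 (0.06 ± 0.10, adjusted p = 0.622) and the NELF genes Nelfa, Nelfb and Nelfcd were not called here, although they were in FBS; their differences between conditions are those given above. Nelfe was called in neither condition. Of the 18 calls, 11 held in all 12 leave-one-out fits, and Polr2c, Polr2j, Polr2l, Cdk12, Ell2, Supt4a and Supt6 lost theirs in at least 1.

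The median change of some chromosomes differed from 0 between the genotypes, and several members lie on them. Genes of chromosome 8 had a median of −0.43 in KO paused against WT paused and −0.46 in KO FBS against WT FBS, and those of chromosome 1 had −0.44 and −0.28. Ell and Polr2c lie on chromosome 8, and Ccnt2, Cdc73 and Tcea1 on chromosome 1. Chromosome 11, with Polr2a, Cdk12, Hexim1, Aff4, Supt4a and Supt6, had medians of 0.08 in KO paused against WT paused, 0.18 in KO FBS against WT FBS and −0.15 in KO pausing. In KO FBS against WT FBS, the neighbours of Hexim1, Cdk12 and Supt4a had medians of 0.37, 0.28 and 0.38. Those of Polr2a, Supt6 and Aff4, on the same chromosome, had −0.34, −0.23 and 0.02. The neighbours of Cdk9, on chromosome 2, had −0.03. Ccnt2 had 131, 132 and 131 CPM in KO paused libraries, 99.3, 108 and 109 in KO FBS libraries, 255, 234 and 254 in WT paused libraries, and 299, 190 and 194 in WT FBS libraries. The KO libraries lay below all WT libraries, and its 49 neighbours had medians of −0.83 in paused cells and −0.50 in FBS, against −0.92 and −1.11 for Ccnt2 itself. Cdc73 had −0.74 ± 0.07 in paused cells (neighbour median −0.42) and −1.06 in FBS (neighbour median −0.39). Tcea1, on the same chromosome, had −0.60 in FBS beside a neighbour median of −0.05, so the shift was not even along the chromosome. Whether the members' differences are those of their chromosomal surroundings was not tested.

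**Figure D4:**
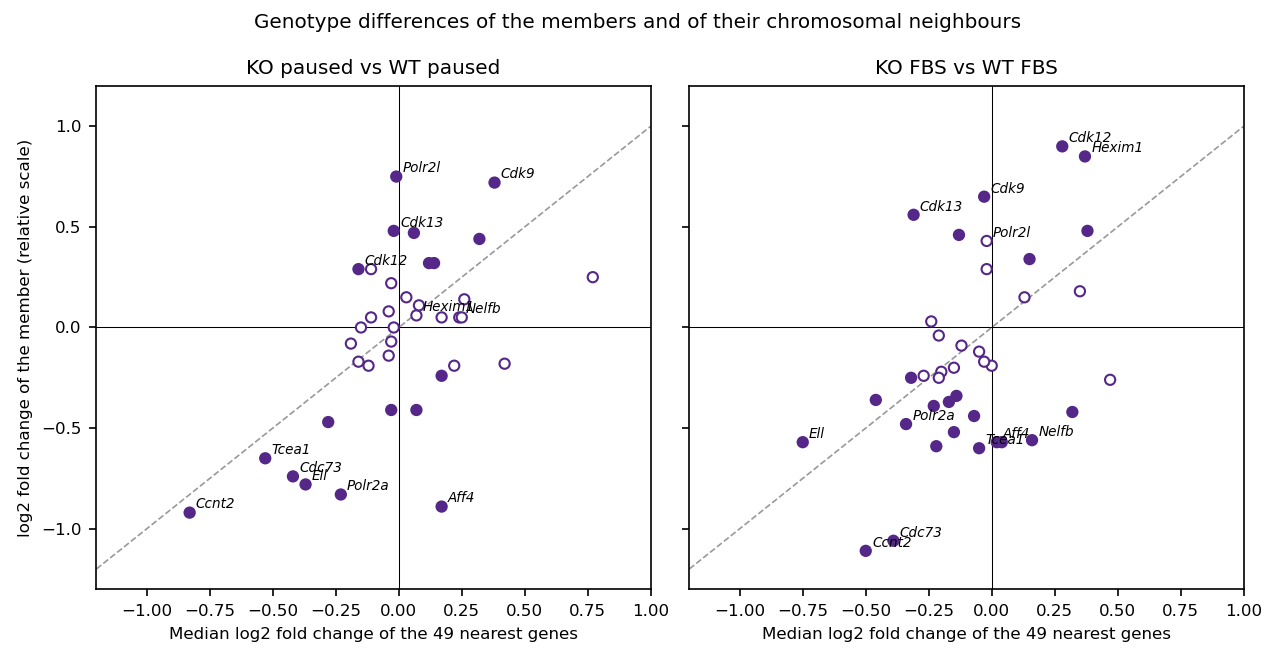
Relative log2 difference between KO and WT of each member (y axis) against the median of its 49 nearest tested genes (x axis), in paused cells (left) and in FBS (right); filled points passed the test and the dashed line marks equality. Ccnt2 lies near the line in paused cells (−0.92 against −0.83), while Aff4 lies far below it (−0.89 against 0.17).

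Per cell, few members differed between the genotypes. In KO FBS against WT FBS, 2 were called higher (Cdk12 0.99 ± 0.33 and Hexim1 0.97 ± 0.32) and 2 lower (Ccnt2 −0.99 ± 0.32 and Cdc73 −0.97 ± 0.32), where 19.1% and 9.81% of tested genes were. Each of these 4 calls was lost in at least 1 leave-one-out fit: leaving out WT FBS replicate 2 left only 1 member called, as did leaving out KO FBS replicate 3, and leaving out KO FBS replicate 1 gave 11. Over all genes, 2176 of 15477 were higher and 1124 lower without WT FBS replicate 2. Without KO FBS replicate 3, 2416 of 15421 were higher and 905 lower, and without KO FBS replicate 1, 4252 of 15443 and 1042. In KO paused against WT paused, 5 were called higher and 0 lower, where 27.1% and 5.62% of tested genes were. They were Polr2l (1.13 ± 0.33), Cdk9 (1.10 ± 0.32), Cdk13 (0.87 ± 0.32), Ctr9 (0.84 ± 0.32) and Polr2j (0.79 ± 0.33), of which Polr2l and Cdk9 held in all 12 leave-one-out fits. Counts between 2 and 10 were found when single libraries were left out: 2 without WT paused replicate 1 or 3 or KO paused replicate 2 or 3, 3 without WT FBS replicate 2, 9 without KO FBS replicate 2 and 10 without KO FBS replicate 1. Over all genes, 2775 of 15625 were higher and 948 lower without WT paused replicate 1. Without KO FBS replicate 2, 4938 of 15421 were higher and 1071 lower, and without KO FBS replicate 1, 5168 of 15443 and 1125. With only the 2 groups compared in the fit, 11 members were called in KO paused against WT paused and 0 in KO FBS against WT FBS. Those fits called 5246 of 14364 genes higher and 1171 lower in paused cells, and 2154 of 14951 higher and 762 lower in FBS. With the replicate number as a block, 15 and 11 members were called. The block called 5901 of 15281 genes higher and 1204 lower in paused cells, and 3707 higher and 2620 lower in FBS.

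Ratios of partner genes within a library do not depend on scaling. Hexim1 per Cdk9 was 0.904, 0.969 and 0.921 in KO paused libraries, 1.06, 1.08 and 1.15 in KO FBS libraries, 1.5, 1.46 and 1.46 in WT paused libraries, and 1.03, 0.811 and 1.06 in WT FBS libraries. On pausing the counts of inhibitor relative to kinase were lower in every KO library and higher in every WT library, with differences of −0.24 ± 0.05 and 0.62 ± 0.12 log2 (SE). Ell2 per Ell had geometric means of 2.23 in KO paused libraries, 3.14 in KO FBS libraries, 1.04 in WT paused libraries and 1.65 in WT FBS libraries. Cdk13 per Cdk12 had 0.46, 0.32, 0.403 and 0.403 in the same order of groups, and Ccnt2 per Ccnt1 had 3.17, 2.30, 5.25 and 4.28. Ssrp1 per Supt16 had 0.769, 0.819, 0.558 and 0.791. With 3 libraries against 3 the exact two-sided permutation test cannot go below p = 0.1; 17 of the 20 comparisons reached it, with adjusted p = 0.118 over the 20, so none passed the threshold. How often ratios of other gene pairs reach it was not counted, so the 17 cannot be read as particular to these pairs.

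**Figure D5:**
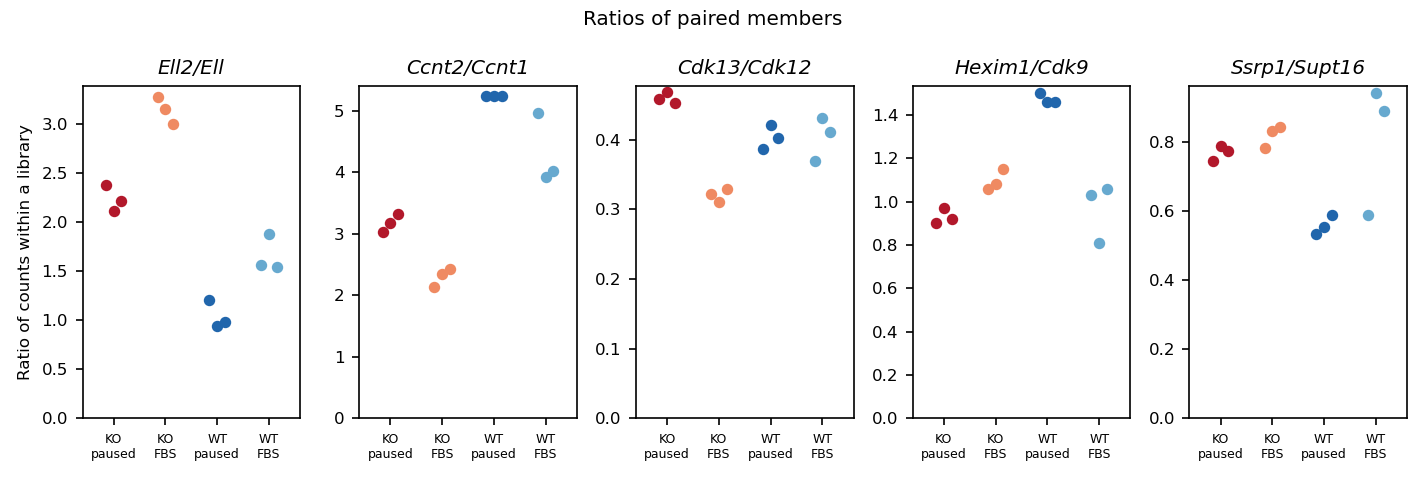
Ratio of counts of 5 pairs of members (y axis, from 0) in each of the 12 libraries, by group. Hexim1 per Cdk9 is highest in WT paused (1.46 to 1.5), and Ell2 per Ell is highest in KO FBS (3.0 to 3.27).

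The partner complexes of Pol II were read on the relative scale, and each pair of counts below gives genes higher and genes lower. They stand against 23.3% higher and 19.4% lower among all tested genes in KO pausing and 18.0% and 20.2% in WT pausing. Among 29 general transcription factor genes, 3 were higher and 4 lower in KO pausing and 1 higher and 12 lower in WT pausing (3.45% and 41.4%), with medians of −0.12 and −0.36; Ercc3, the TFIIH translocase, fell in WT (−0.55 ± 0.10), and Taf4a rose by 0.58 ± 0.08 in KO. Among 32 Mediator genes, 3 and 2 were called in KO (9.38% and 6.25%) and 4 and 8 in WT; Cdk8, the Mediator kinase, fell in WT (−0.55 ± 0.09), and Med12 rose in KO (0.78 ± 0.10). Of 16 Integrator genes, 3 and 3 were called in KO and 0 and 6 in WT, and the largest change in the list was Nabp1 in KO (−2.37 ± 0.12, adjusted p = 1.02e-07). Of 16 CTD phosphatase and Pol II assembly genes, 4 and 1 were called in KO and 4 and 8 in WT. Among 19 Pol I and Pol III subunit genes the counts were 4 and 4 in KO and 2 and 8 in WT; Crcp, a Pol III subunit gene, fell in WT (−0.92 ± 0.11). Of 19 tested genes among 20 other elongation factors, 3 and 3 were called in KO and 2 and 7 in WT. Tcea3, a TFIIS paralogue, rose in KO (1.74 ± 0.22, adjusted p = 6.11e-05), where Tcea1 fell.

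Between the genotypes, Mllt3, which encodes the AF9 partner of the super elongation complex, was higher in KO by 2.51 ± 0.15 in paused cells and by 1.86 ± 0.13 in FBS. Of all tested genes, 27.9% were higher and 23.9% lower in paused cells, and 28.4% and 29.4% in FBS. General transcription factors had 4 genes higher and 7 lower in KO paused and 5 higher and 16 lower in KO FBS, with Gtf2b at −1.10 in both. Integrator had 4 and 7 in paused cells and 1 and 9 in FBS, with Ints7 at −1.13 ± 0.07 and −1.47 ± 0.07. Mediator had 8 and 4 in paused cells and 7 and 9 in FBS, with Med18 at 1.31 ± 0.21 and 1.37 ± 0.20. The other elongation factors had 5 and 3 in paused cells and 6 and 3 in FBS, CTD phosphatase and assembly genes 4 and 3 in paused cells and 5 and 8 in FBS, and Pol I and III subunits 5 and 5 in paused cells and 4 and 7 in FBS. For the difference between pausing effects, Nabp1 stood out among partner genes (−2.37 ± 0.17, adjusted p = 7.1e-06). Hexim2, the paralogue of Hexim1, had −1.27 ± 0.40 (adjusted p = 0.0469).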

How the data were processed

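RNA-seq of polyA RNA from 12 libraries was analysed from a deposited count table and a deposited table of log2 values. Per the submitters' processing notes, Trim Galore 0.4.0, featureCounts of Subread 1.5.0, build mm10 and edgeR 3.32.1 were used; for the aligner, the annotation and the use of strand in counting the notes name nothing. The deposited counts are whole reads per gene, not normalized, with 92 ERCC rows, which were kept out of the tests. The log2 table the authors deposited holds 14495 genes; it equals the log2 of each count plus a small constant and an offset per library, and served as an alternative for the per-cell scale.

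Counts were tested with edgeR 4.0.16 (quasi-likelihood, robust) in R 4.3.3, with 4 group means over the 12 libraries, filterByExpr (minimum count 10), and Benjamini-Hochberg adjustment over 15281 genes at 0.05. Relative values used TMM factors over genes. Per-cell values used ERCC totals with TMM factors over ERCC rows; their error includes that of the spike-ins. On simulated data for WT paused against WT FBS (15281 genes), the relative fit recovered 94% of 2-fold and 100% of 4-fold changes, with 6.28% of calls false; the per-cell fit recovered 95% and 100%, with 7.58% false. The simulation changed 200 of the better-counted genes and gave every gene the same dispersion (spread between libraries), 0.02. It held no spike-in error and no deviating library, so these rates check the fit and may not hold for the real libraries. SE is the change divided by the root of its F value. Exonic lengths, positions and transcripts came from GENCODE vM21 on GRCm38, and promoter windows from RefSeq. Ratios were tested by exact permutation over libraries. DESeq2 1.42.0 and limma 3.58.1 served in alternatives.

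Named with the value in every library were Polr2a, Cdk9, Ccnt1, Hexim1, the 5 called members of lowest p per comparison and members with a called difference between pausing effects; of each partner list, up to 3 called genes of lowest p per comparison could be named. The members and lists were chosen with earlier results of these data known. Intervals cover library spread only, and reads without molecular identifiers are not independent molecules. Of the members, 14 share exonic bases with another annotated gene, between 0.43% and 34.1% of their length.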

Additional observations from a re-analysis of the deposited data

Results flagged for a closer look

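The pausing effect differed between KO and WT cells for 6 members on the relative scale. Of all tested genes, 9.61% were called higher and 8.26% lower. Each call came from a direct test of the difference (edgeR, KO effect minus WT effect). It was negative for Hexim1 (−0.79, adjusted p = 0.00217) and Cdk12 (−0.61, adjusted p = 0.0121). It was positive for Nelfb (0.61, adjusted p = 0.00327), Nelfcd (0.42, adjusted p = 0.0215), Nelfa (0.45, adjusted p = 0.0303) and Cdc73 (0.32, adjusted p = 0.0481). The same differences on the per-cell scale were −0.52, −0.31, 0.88, 0.68, 0.70 and 0.62 log2 in that order of genes, and none passed the test there (adjusted p between 0.322 and 0.745). On the relative scale, Hexim1, Cdk12 and Nelfb kept their calls in all 12 leave-one-out fits. Nelfa, Nelfcd and Cdc73 lost theirs in at least 1.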

How the results depend on the processing

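Over the 39 members, 5 comparisons and all alternatives, 7137 values were compared with those reported: 6641 kept direction and side of the threshold, 335 lost a call, 161 gained one and 0 called values changed sign, while 133 of the 4062 values called in neither setting differed in sign. With single libraries left out, the number of called members ran between 10 and 30 in relative WT pausing (20 reported), 9 and 27 in relative KO pausing (14), 3 and 20 for the difference between pausing effects (6), 13 and 37 in per-cell KO pausing (28), 1 and 11 per cell in KO FBS against WT FBS (4), and 2 and 10 per cell in KO paused against WT paused (5). With only the 2 groups in the fit, the counts were 26 in relative KO pausing, 4 in relative WT pausing, 0 per cell in KO FBS against WT FBS and 11 per cell in KO paused against WT paused. Counts over all genes moved in these fits as well. With single libraries left out, 15421 to 15666 genes were tested. In relative WT pausing 2018 to 4348 were higher and 2074 to 4871 lower. In relative KO pausing the ranges were 2748 to 4678 and 2254 to 4671. For the relative difference between pausing effects they were 909 to 3796 and 895 to 2667. In per-cell KO pausing 224 to 523 were higher and 3810 to 10169 lower. Those for the genotype comparisons and the fits with 2 groups are given above. The cause of these moves was not tested beyond the fewer libraries. The replicate block gave 11 per cell in KO FBS against WT FBS, 15 per cell in KO paused against WT paused and 1 for the per-cell difference between pausing effects (0 reported; 0 with DESeq2), and moved no other count by over 1.5 times. The numbers were not taken to pair the samples, and the fit without the block was kept as the main one. Correlations of same-numbered libraries ran between −0.011 and 0.238, with 10 of 18 over 0.1. Those of differently numbered libraries ran between −0.224 and 0.176, and 10 of 12 samples correlated best with their own number. Pairs of replicate 1 had 0.105 to 0.238. Within every group replicate 1 had the lowest member share of gene counts (0.416% to 0.447%) and the fewest cellular counts per ERCC count. An effect shared by same-numbered libraries was not tested beyond the block, and the per-cell genotype counts depend on this choice. Without single libraries, the log2 difference of the Cdk13 to Cdk12 ratio on WT pausing ran between −0.06 and 0.05 (0.00 reported), and that of the Ssrp1 to Supt16 ratio in KO FBS against WT FBS between −0.16 and 0.18 (0.05 reported), negative without WT FBS replicate 1. Polr2i had the lowest count of any member in a library, 69.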
